A study of Homo sapiens with 4 samples.

Results

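The genes of heme breakdown and iron storage, uptake and export were examined in hepatocellular carcinoma (HCC) cells treated with arsenic trioxide (ATO). They were taken by symbol as HMOX1, HMOX2, BLVRA, BLVRB, FTH1, FTL, TFRC, TF, SLC40A1 and SLC11A2, and 9 of these 10 genes were measured, with 27 of the 54675 probe sets on the array. FTH1 was not analysed here, since no probe set carried that symbol alone in the annotation used. The 4 profiles, from Affymetrix Human Genome U133 Plus 2.0 arrays, came from Huh7 cells given ATO at 3 μM for 7 days, Huh7 cells given DMSO as negative control (NC), Hep3B cells given the same ATO treatment, and Hep3B cells given DMSO. Huh7 and Hep3B are established human HCC lines, so each stands for 1 tumor, and no line had a replicate of either condition. The time at which the DMSO cells were harvested was not in the labels.

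Heme oxygenase opens the heme ring and releases iron, carbon monoxide and biliverdin, which biliverdin reductase turns into bilirubin. Iron enters cells bound to transferrin through the transferrin receptor, is carried across endosomal membranes by SLC11A2 (DMT1), is stored in the ferritin shell of FTH1 and FTL chains, and leaves through SLC40A1 (ferroportin). HMOX1 is the inducible heme oxygenase and is known to respond to arsenic, heme and other oxidative stress. The liver is a main site of iron storage and the main source of plasma transferrin. Iron regulatory proteins bind iron-responsive elements (IREs) in the mRNAs of several of these genes, where they block translation of ferritin and protect the TFRC mRNA from decay.

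Sequences were read from the RefSeq promoter table (GRCh38.p14), in which 8 of the 10 genes had 13 windows. HMOX1 and FTH1 had none. The 25 bases of FTL at chr19:48965334-48965358 on the + strand lie 26 to 50 bases into the transcript and are shown for the IRE, with the CAGTG of its loop in capitals. The 250 bases before the start site are shown for BLVRA (chr7:43758430-43758679, + strand), BLVRB (chr19:40465746-40465995, - strand) and TFRC (chr3:196082091-196082340, - strand), because the biliverdin reductases had the next highest ratios after HMOX1 and TFRC had the lowest ratio in Huh7. Capitals mark CCAAT in BLVRA and ACGTG, the core of the hypoxia response element, in TFRC, and the BLVRB window held no motif searched.
FTL: tctcttgcttcaaCAGTGtttggac
BLVRA: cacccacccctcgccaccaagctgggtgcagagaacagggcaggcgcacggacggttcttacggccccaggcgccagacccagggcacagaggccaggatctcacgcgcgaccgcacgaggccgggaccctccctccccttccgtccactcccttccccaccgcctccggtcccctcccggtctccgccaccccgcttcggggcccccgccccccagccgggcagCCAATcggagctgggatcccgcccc
BLVRB: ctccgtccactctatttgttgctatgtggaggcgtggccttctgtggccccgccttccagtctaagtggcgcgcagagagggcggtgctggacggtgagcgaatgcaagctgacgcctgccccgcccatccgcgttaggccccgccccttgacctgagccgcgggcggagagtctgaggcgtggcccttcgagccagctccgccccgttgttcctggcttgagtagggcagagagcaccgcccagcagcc
TFRC: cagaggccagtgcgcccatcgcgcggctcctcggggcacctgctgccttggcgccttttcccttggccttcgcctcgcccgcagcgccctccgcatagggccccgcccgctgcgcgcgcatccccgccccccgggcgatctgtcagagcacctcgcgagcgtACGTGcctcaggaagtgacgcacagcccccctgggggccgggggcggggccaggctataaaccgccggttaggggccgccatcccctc

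The antioxidant response element core, searched as TGACNNNGC and as TGAGNNNGC on both strands, was in 0 of the 13 windows in either form, against 10.9% and 14.8% of 35116 windows. ACGTG was in 3 of the 13 windows (TFRC, HMOX2 and FTL), against 18.5% of all windows. CCAAT was in 8 of the 13, of which 4 belong to SLC11A2 and 1 each to BLVRA, TF, HMOX2 and FTL, against 32.0% of all windows. No motif overlapped another in these windows, except that ACGTG matched on both strands at 1 place in HMOX2. A match gives the letters only and is not a measured site, and elements outside these 250 bases were not searched.

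Each gene was represented by its brightest probe set, and the deposited intensities, which are on a linear scale, were divided as ATO over NC within each line. A gene counted as changed when the ratio was above 1.5 or below 0.67 in both lines. HMOX1 was above 1.5 in both lines, and none of the 9 genes was below 0.67 in both. Over all 19775 genes, 0.804% were above 1.5 in both lines and 0.587% were below 0.67 in both. TFRC was below 0.67 in Huh7 only (0.61), BLVRB was above 1.5 in Hep3B only (1.82), and SLC11A2 was below 0.67 in Hep3B only (0.60). In Huh7, 1 of the 9 genes was above 1.5 and 1 below 0.67, where 3.21% and 3.25% of all genes were. In Hep3B, 2 of the 9 were above and 1 below, where 5.04% and 4.02% of all genes were. Leaving the size aside, 4 genes (HMOX1, BLVRA, BLVRB and FTL) were higher in ATO cells in both lines and 4 (TFRC, TF, SLC40A1 and SLC11A2) were lower in both. Over all genes these directions held for 32.0% and 24.7%, and nothing is read from counts of 4 among 9. HMOX2 moved in opposite directions. In Huh7 the 9 genes had a median log2 ratio of -0.04, beside 0.01 over all genes, and in Hep3B one of 0.05, beside 0.04.

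**Figure D1:**
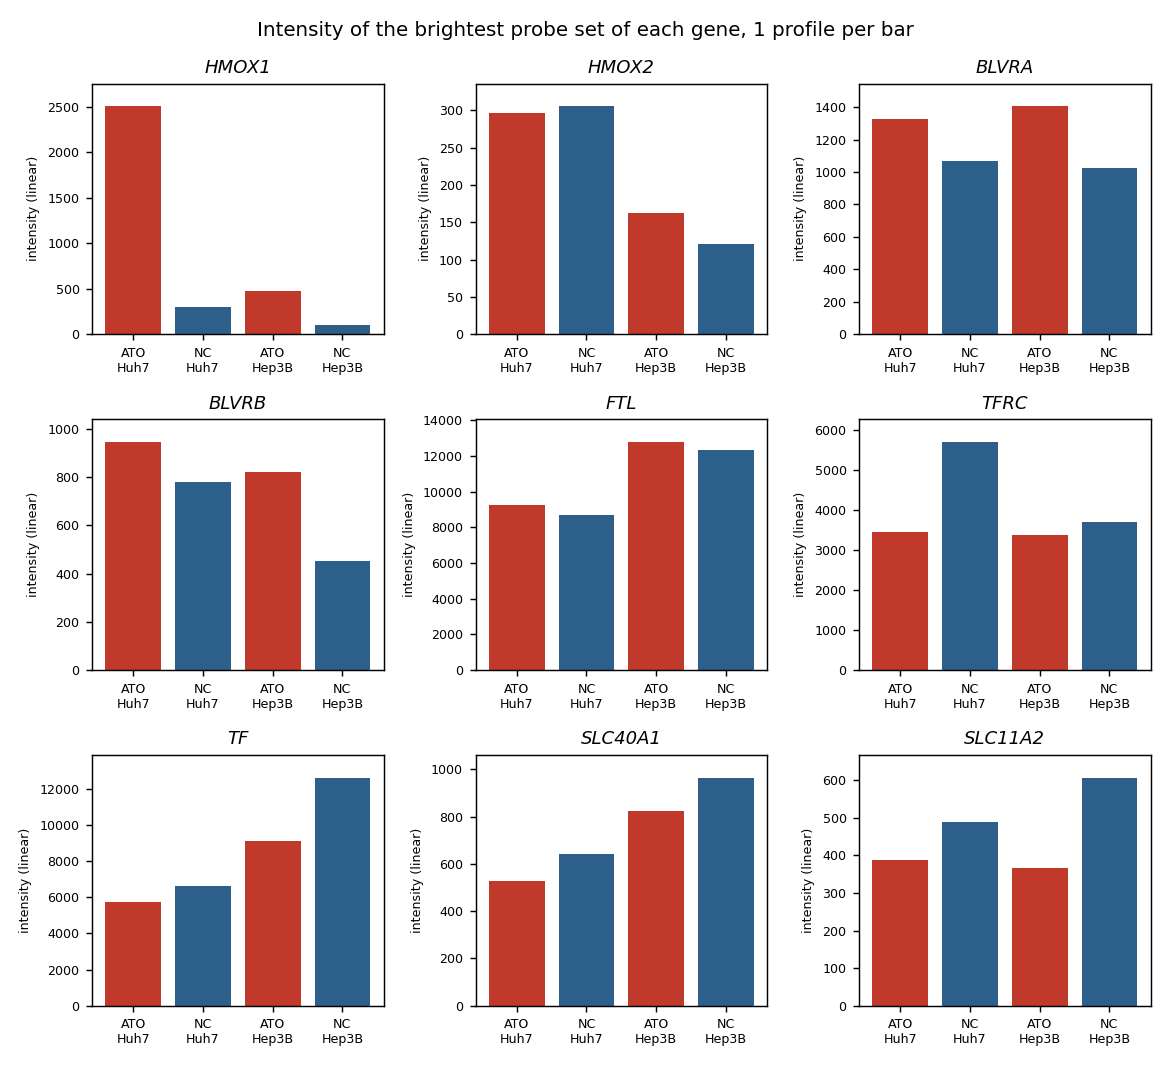
Intensity (linear scale) of the brightest probe set of each of the 9 measured genes, with 1 bar for each profile in the order ATO Huh7, NC Huh7, ATO Hep3B and NC Hep3B. There is 1 profile per bar and so no error bar. HMOX1 stands at 2507 in ATO Huh7 cells, and the ATO and NC bars of FTL are nearly level within each line.

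Both lines were also fitted together with limma on log2(intensity + 16), with cell line as a block and Benjamini-Hochberg adjustment over all genes, which left 1 residual degree of freedom. limma called 0 of 19775 genes (0%) at an adjusted p under 0.05, while 1886 genes (9.54%) and 5 of the 9 measured genes (HMOX1, BLVRA, TF, SLC40A1 and SLC11A2) had an unadjusted p under 0.05. Over the other settings run, that count among the 9 went from 2 with cell line left out to 6 with an intensity trend in the prior. Nothing is read from it. The lowest adjusted p in the fit with cell line as a block and the offset of 16 was 0.506. No single gene therefore passed the limma test, and the ratios are given as values from 1 profile per condition and line. The mean log2 ratio over the lines is given with its SD, which measures the spread between 2 different lines and not between replicates of 1 line.

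HMOX1, read by 1 probe set (203665_at), was 8.28-fold higher in ATO cells than in NC cells in Huh7 and 4.97-fold higher in Hep3B. Its intensity was 2507 in ATO Huh7 cells and 303 in NC Huh7 cells. In Hep3B it was 479 in ATO cells and 96.5 in NC cells. Both ATO profiles were above both NC profiles, and Huh7 was the higher line under either treatment. The share of all genes whose ATO profiles both lie above or both below the NC profiles was not counted. Such an order is therefore a description only, here and for the genes below. HMOX1 had the ratio of rank 4 from the top among 19775 genes in Huh7 and of rank 23 in Hep3B. The mean log2 ratio was 2.68 ± 0.52 (SD, n = 2 lines). In limma the log2 fold change of HMOX1 was 2.56 ± 0.26 (SE) with an adjusted p of 0.506. The call turned on the offset, the prior and the filter, since the adjusted p of HMOX1 in limma was 0.0299 with no offset, 0.0181 with an intensity trend in the prior and 0.0449 with dim genes left out, against 0.490 with an offset of 64, 0.529 with median centring, 0.548 with the mean of probe sets and 0.99997 with cell line left out. With median centring, quantile normalization or an offset of 16, the log2 ratio of HMOX1 was 2.98 to 3.01 in Huh7, beside 3.05 as deposited, and 2.14 to 2.32 in Hep3B, beside 2.31. With 1 probe set, HMOX1 had no other choice of probe set to compare. In such bulk RNA, more cells of a kind that expresses a gene and more RNA per cell cannot be told apart.

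HMOX2, the constitutive heme oxygenase, did not follow HMOX1. Its brighter probe set (218120_s_at) read 296 in ATO Huh7 cells and 305 in NC Huh7 cells, a ratio of 0.97. In Hep3B the same probe set read 162 in ATO cells and 121 in NC cells, a ratio of 1.35. The dimmer probe set (218121_at) gave 1.11 in Huh7 and 0.99 in Hep3B, so that the probe sets of HMOX2 disagreed in direction in both lines. Over the lines the log2 ratio averaged 0.19 ± 0.33 (SD, n = 2 lines), and limma gave 0.17 with an adjusted p of 0.775.

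**Figure D2:**
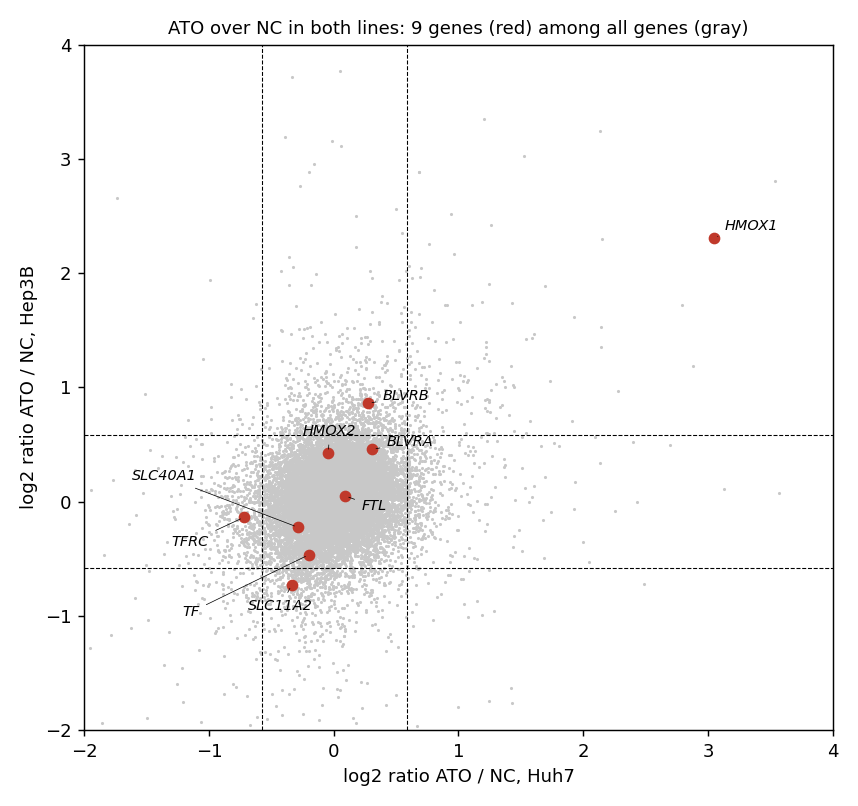
log2 ratio of ATO over NC in Huh7 (x axis) and in Hep3B (y axis) for all genes (gray) and the 9 measured genes (red), with dashed lines at ratios of 1.5 and 0.67 and 26 genes outside the axes. HMOX1 lies far to the upper right at 3.05 and 2.31, and the other 8 genes lie within the main cloud or at its edge.

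Both biliverdin reductases read higher in ATO cells, by less than HMOX1. BLVRA, which reduces the main form of biliverdin, read 1327 in ATO Huh7 cells and 1070 in NC Huh7 cells by its brightest probe set (211729_x_at), a ratio of 1.24. The Hep3B profiles read 1404 in ATO cells and 1023 in NC cells, a ratio of 1.37. Both ATO profiles of BLVRA were thus above both NC profiles. Of its 5 probe sets, the 4 that were not dim (a probe set is called dim below 17.3, the median over all probe sets) were higher in ATO cells in both lines, with ratios of 1.21 to 1.40 in Huh7 and 1.32 to 1.67 in Hep3B. The probe set 203771_s_at gave the 1.40 and the 1.67, so BLVRA would pass 1.5 in Hep3B if _x_at probe sets, a suffix that marks possible cross-hybridization, were left out. The fifth (203772_at) was dim in all 4 profiles, with log2 ratios of 0.01 and 0.02. The mean log2 ratio of BLVRA was 0.38 ± 0.10 (SD, n = 2 lines), and limma gave 0.38 with an adjusted p of 0.506.

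BLVRB, which acts on fetal biliverdin and on flavins, was read by 1 probe set (202201_at). It read 945 in ATO Huh7 cells and 779 in NC Huh7 cells, a ratio of 1.21. In Hep3B it read 823 in ATO cells and 453 in NC cells, a ratio of 1.82. Here too both ATO profiles were above both NC profiles. The level in Huh7 over that in Hep3B was 1.15 in ATO cells and 1.72 in NC cells, the NC profile of Hep3B being the low one of the 4. Its log2 ratio averaged 0.57 ± 0.41 (SD, n = 2 lines), and limma gave 0.56 with an adjusted p of 0.533.

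FTL, the ferritin light chain whose IRE is printed above, had nearly equal intensity in ATO and NC cells of each line. The brighter probe set (212788_x_at) read 9248 in ATO Huh7 cells and 8668 in NC Huh7 cells, a ratio of 1.07. The Hep3B profiles read 12767 in ATO cells and 12331 in NC cells, a ratio of 1.04. The second probe set (213187_x_at) gave 1.12 in Huh7 and 1.14 in Hep3B. Both end in _x_at, so the values of FTL are uncertain where related transcripts bind. FTL differed more between lines than between treatments, with Huh7 over Hep3B at 0.72 in ATO cells and 0.70 in NC cells. Averaged over the lines, the log2 ratio was 0.07 ± 0.03 (SD, n = 2 lines), and limma gave 0.07 with an adjusted p of 0.794. The arrays measure mRNA, and the block that an IRE places on ferritin translation would not appear in these values.

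TFRC, the receptor that takes up iron-loaded transferrin, was lower in ATO cells by its bright probe sets, mainly in Huh7. The brightest (207332_s_at) read 3459 in ATO Huh7 cells and 5700 in NC Huh7 cells, a ratio of 0.61. In Hep3B it read 3369 in ATO cells and 3705 in NC cells, a ratio of 0.91. NC Huh7 cells stood above the other 3 profiles, and the ATO profiles of the lines lay close together, with Huh7 over Hep3B at 1.03 in ATO cells and 1.54 in NC cells. The probe set 208691_at gave 0.59 in Huh7 and 0.76 in Hep3B. A much weaker probe set (240686_x_at) went the other way with 1.15 and 1.05, and the remaining 2 of the 5 were dim in at least 2 profiles. The mean log2 ratio was -0.43 ± 0.41 (SD, n = 2 lines), and limma gave -0.43 with an adjusted p of 0.586.

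TF, the plasma iron carrier transferrin, was lower in ATO cells of both lines by its bright probe sets. The brightest (203400_s_at) read 5753 in ATO Huh7 cells and 6610 in NC Huh7 cells, a ratio of 0.87. The Hep3B profiles read 9113 in ATO cells and 12576 in NC cells, a ratio of 0.72. Both Hep3B profiles of TF were above both Huh7 profiles, as they were for FTL and SLC40A1, with Huh7 over Hep3B at 0.63 in ATO cells and 0.53 in NC cells. The share of all genes with such an order of the lines was not counted. The second bright probe set (214063_s_at) gave 0.82 and 0.73. The weaker 214064_at gave 1.18 in Huh7 and 0.61 in Hep3B, so that in Huh7 the direction depends on the probe set, and the fourth was dim in all 4 profiles. Over the lines the log2 ratio averaged -0.33 ± 0.19 (SD, n = 2 lines), and limma gave -0.33 with an adjusted p of 0.523. The summed intensity of 9 hepatocyte markers, among them ALB, AFP and APOA1, was 20177 in ATO Huh7 cells, 20943 in NC Huh7 cells, 37314 in ATO Hep3B cells and 50747 in NC Hep3B cells. Of these markers 4 of 9 were lower in both lines, against 24.7% of all genes, 0 were higher in both and 5 went opposite ways. Lower in both were AFP at 0.68 in Huh7 and 0.46 in Hep3B, SERPINA1 at 0.80 and 0.66, APOA1 at 0.93 and 0.60, and APOB at 0.99 and 0.74. Of the other markers, ALB was at 2.31 in Huh7 and 0.84 in Hep3B, AHSG at 2.12 and 0.75, and FGB at 0.75 and 2.82. TTR was at 0.68 and 1.16, and GPC3 at 1.12 and 0.64. SERPINA1 alone gave 10211 of the sum in ATO Huh7 cells. The part of these markers in the values of TF was not tested.

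SLC11A2, the divalent metal transporter that moves iron out of endosomes, was lower in ATO cells by all 3 of its probe sets that were not dim. The brightest (203124_s_at) read 387 in ATO Huh7 cells and 490 in NC Huh7 cells, a ratio of 0.79. In Hep3B it read 365 in ATO cells and 605 in NC cells, a ratio of 0.60. Both ATO profiles lay below both NC profiles. The other probe sets gave 0.82 and 0.61 (203123_s_at) and 0.75 and 0.84 (203125_x_at) in Huh7 and Hep3B, and 2 more were dim in all 4 profiles. Its log2 ratio averaged -0.53 ± 0.28 (SD, n = 2 lines), and limma gave -0.52 with an adjusted p of 0.506.

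SLC40A1, the only known iron exporter of mammalian cells, was slightly lower in ATO cells by its brighter probe set. Its brighter probe set (223044_at) read 527 in ATO Huh7 cells and 644 in NC Huh7 cells, a ratio of 0.82. The Hep3B profiles read 825 in ATO cells and 963 in NC cells, a ratio of 0.86. The weaker probe set (233123_at) was higher in ATO cells, at 1.21 in Huh7 and 1.34 in Hep3B, so the direction of SLC40A1 depends on the probe set in both lines. Hep3B was the higher line, with Huh7 over Hep3B at 0.64 in ATO cells and 0.67 in NC cells. Averaged over the lines, the log2 ratio was -0.26 ± 0.05 (SD, n = 2 lines), and limma gave -0.25 with an adjusted p of 0.506.

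**Figure D3:**
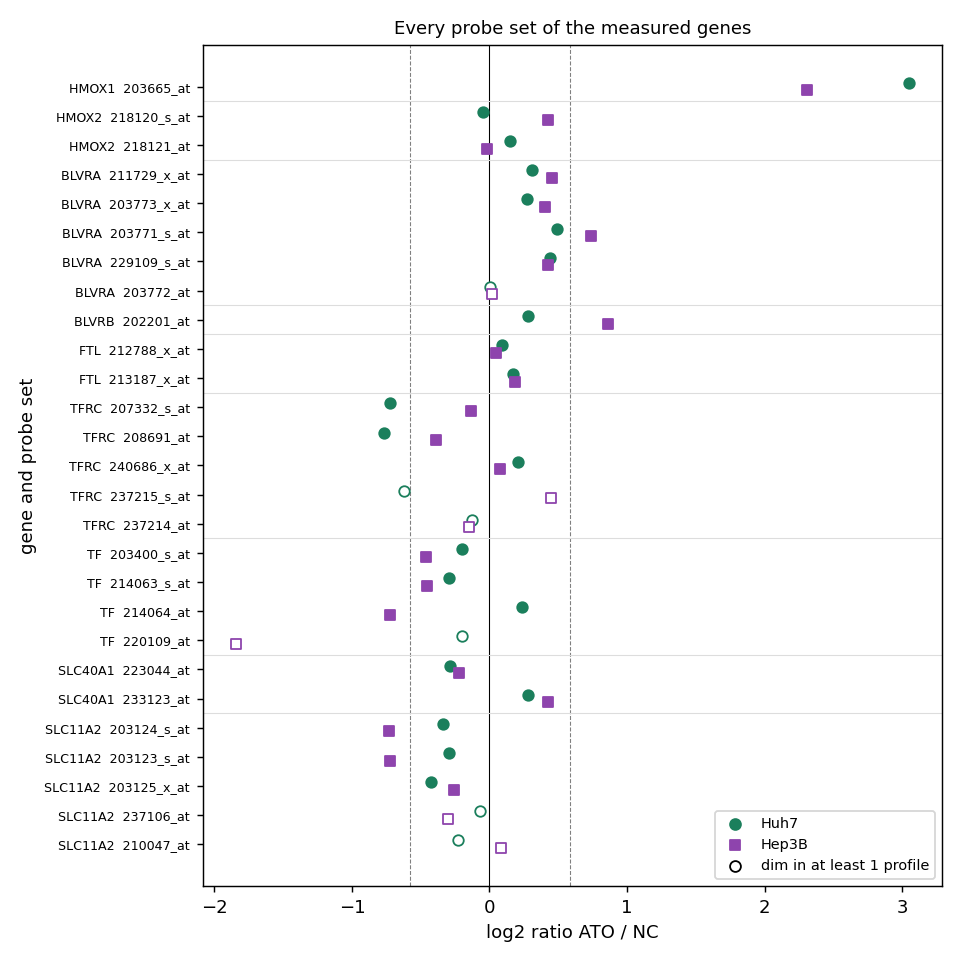
log2 ratio of ATO over NC for each of the 27 probe sets of the 9 measured genes, with circles for Huh7 and squares for Hep3B and dashed lines at ratios of 1.5 and 0.67. Open symbols mark the 6 probe sets that were dim in at least 1 profile. Of the 21 others, ATO cells had 10 higher and 8 lower in both lines.

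The poly-A control transcripts, which are added to the RNA before labeling, moved with treatment. Over 27 probe sets their log2 ratio of ATO over NC was -0.25 in Huh7 and -0.28 in Hep3B, while that of 18 hybridization control probe sets was 0.07 and 0.06. FTL in both lines, TF and HMOX2 in Huh7, and TFRC and SLC40A1 in Hep3B differed by less than this poly-A shift in size, and its part in the results was not tested. The 3' minus 5' difference of GAPDH and ACTB differed between ATO and NC by -0.07 to 0.03 on the log2 scale. The labelled liver origin of the lines was checked by markers, and all 9 measured hepatocyte markers stayed above 17.3 in every profile. Of other cell types, 0 of 4 leukocyte markers did so, with sums of 37.9 to 51.5, as did 2 of 5 stromal and endothelial markers (137 to 156) and 2 of 3 erythroid markers (45.2 to 52.1). In NC Huh7 cells the hepatocyte markers ran from 29.3 (GPC3) to 12710 (SERPINA1). There TTR at 48.1 was below the stromal marker COL1A1 at 76.4. Staying above 17.3 therefore does not set liver markers apart from others. ALB read 155 in NC Huh7 cells and 12803 in NC Hep3B cells, and AFP read 91.8 and 3566.5. TTR and GPC3, at 1704 and 3730 in NC Hep3B cells, were also far lower in NC Huh7 cells. SERPINA1 and FGB were higher in NC Huh7 cells than in NC Hep3B cells.

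By the brightest probe set, HMOX1, HMOX2, BLVRB and TFRC were higher in Huh7 under both treatments, TFRC at only 1.03 in ATO cells. FTL, TF and SLC40A1 were higher in Hep3B under both, while the order of the lines changed with treatment for BLVRA and SLC11A2. In HMOX1, Huh7 over Hep3B was 5.23 in ATO cells and 3.14 in NC cells, and in HMOX2 it was 1.82 and 2.53. BLVRA differed little between lines, at 0.94 in ATO cells and 1.05 in NC cells. SLC11A2 was at 1.06 in ATO cells and 0.81 in NC cells. The probe set mattered here. In NC cells the log2 of Huh7 over Hep3B for SLC11A2 was -0.31 by the brightest probe set and 0.08 by the mean of all. It was 0.15 without those ending in _x_at or _s_at. The 0.15 came from 237106_at, dim in all 4 profiles, and the mean included 2 dim probe sets. Of those not dim, 203123_s_at read 295 in NC Huh7 and 352 in NC Hep3B cells, and 203125_x_at read 121 and 85.0. For HMOX2 in NC cells it was 1.34, 0.97 and 0.61 by the same choices. None of these differences between lines has a replicate within a line, and none was tested.

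Of 60 other heme and iron genes, 53 were measured. Their ratios are from the brightest probe set, and their other probe sets and settings were not examined. SLC48A1 and STEAP3 were above 1.5 in both lines, which is 2 of 53, and 0 of 53 were below 0.67 in both, against 0.804% and 0.587% of all genes. SLC48A1 (HRG1) moves heme out of lysosomes and read 201 in ATO Huh7 cells and 132 in NC Huh7 cells. In Hep3B SLC48A1 read 161 in ATO cells and 66.4 in NC cells, and its ratios were 1.53 and 2.42. STEAP3, the endosomal reductase that prepares iron for SLC11A2, read 230 in ATO Huh7 cells and 152 in NC Huh7 cells. In Hep3B STEAP3 read 228 in ATO cells and 147 in NC cells, and its ratios were 1.51 and 1.55. Both ratios of STEAP3 and the Huh7 ratio of SLC48A1 were close to the threshold. In both genes, which are named for their ratios, each ATO profile was above both NC profiles, and this order adds no separate support.

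The members of single pathways were mostly within the thresholds. Among heme synthesis genes, 8 of 9 were measured and 0 passed in both lines. ALAS1, the rate-limiting enzyme of heme synthesis in liver, was at 1.24 in Huh7 and 1.33 in Hep3B. FECH, which inserts iron into the ring, was at 1.14 and 1.74, and CPOX, an earlier enzyme of the pathway, was at 0.93 and 0.57. Of heme transport and scavenging genes 10 of 11 were measured, with SLC48A1 alone above 1.5 in both lines. In Hep3B only, ABCG2, which exports heme and porphyrins among many substrates, was at 2.55 (1.03 in Huh7), the porphyrin transporter ABCB6 at 1.84 (1.07 in Huh7, where it was dim in both profiles) and the heme exporter FLVCR1 at 0.60 (0.74 in Huh7).

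Of genes for iron uptake, reduction and delivery, 14 of 15 were measured and only STEAP3 passed in both lines. In Huh7 only, the metal importers SLC39A8 and SLC39A14 were at 0.56 and 0.60 (1.16 and 0.93 in Hep3B), and STEAP2, a metalloreductase, was at 0.62 (0.92 in Hep3B, where it was dim). The mitochondrial iron importer SLC25A37 gave 0.88 in Huh7 and 1.69 in Hep3B, being dim in 2 profiles. NCOA4, the receptor that takes ferritin to lysosomes, was at 1.03 and 0.88. CP, the ferroxidase ceruloplasmin that helps iron leave through SLC40A1, read 606 in ATO Huh7 cells and 565 in NC Huh7 cells. In Hep3B CP read 212 in ATO cells and 625 in NC cells, so that ATO Hep3B cells stood alone below the rest, with ratios of 1.07 and 0.34.

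Of iron sensing and hepcidin control genes, 9 of 10 were measured and 0 passed in both lines. ACO1, the iron regulatory protein that also acts as the cytosolic aconitase, gave 0.84 in Huh7 and 0.94 in Hep3B, and IREB2 was not analysed here. FBXL5, which marks IREB2 protein for decay, was at 1.14 and 0.81. HAMP, the gene of the iron hormone hepcidin, was at 1.47 and 1.23 with intensities of 15.2 to 29.1, so 1 of its profiles was dim. HFE, an upstream regulator of hepcidin, was at 0.58 in Huh7 (0.84 in Hep3B), and TMPRSS6, which lowers hepcidin, was at 0.56 in Hep3B (0.91 in Huh7). Iron-sulfur cluster assembly genes, 5 of 7 measured, held no ratio past a threshold in either line, with a range of 0.88 to 1.20 in Huh7 and 0.70 to 1.19 in Hep3B.

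Of regulators of HMOX1 and ferritin transcription, 5 of 6 were measured, and 4 were higher in ATO cells in both lines with 0 past 1.5 in both. NFE2L2, the activator NRF2, was at 0.99 and 0.98, and BACH1, the repressor that heme removes from HMOX1, was at 1.19 and 1.05. MAFF, a small MAF partner of both, was at 1.77 in Huh7 and 1.34 in Hep3B. Of all 53 genes, ATO cells had 23 higher and 15 lower values in both lines, beside 32.0% and 24.7% over all genes. Their median log2 ratio in Huh7 was 0.04, beside 0.01 over all genes, and in Hep3B it was 0.05, beside 0.04.

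**Figure D4:**
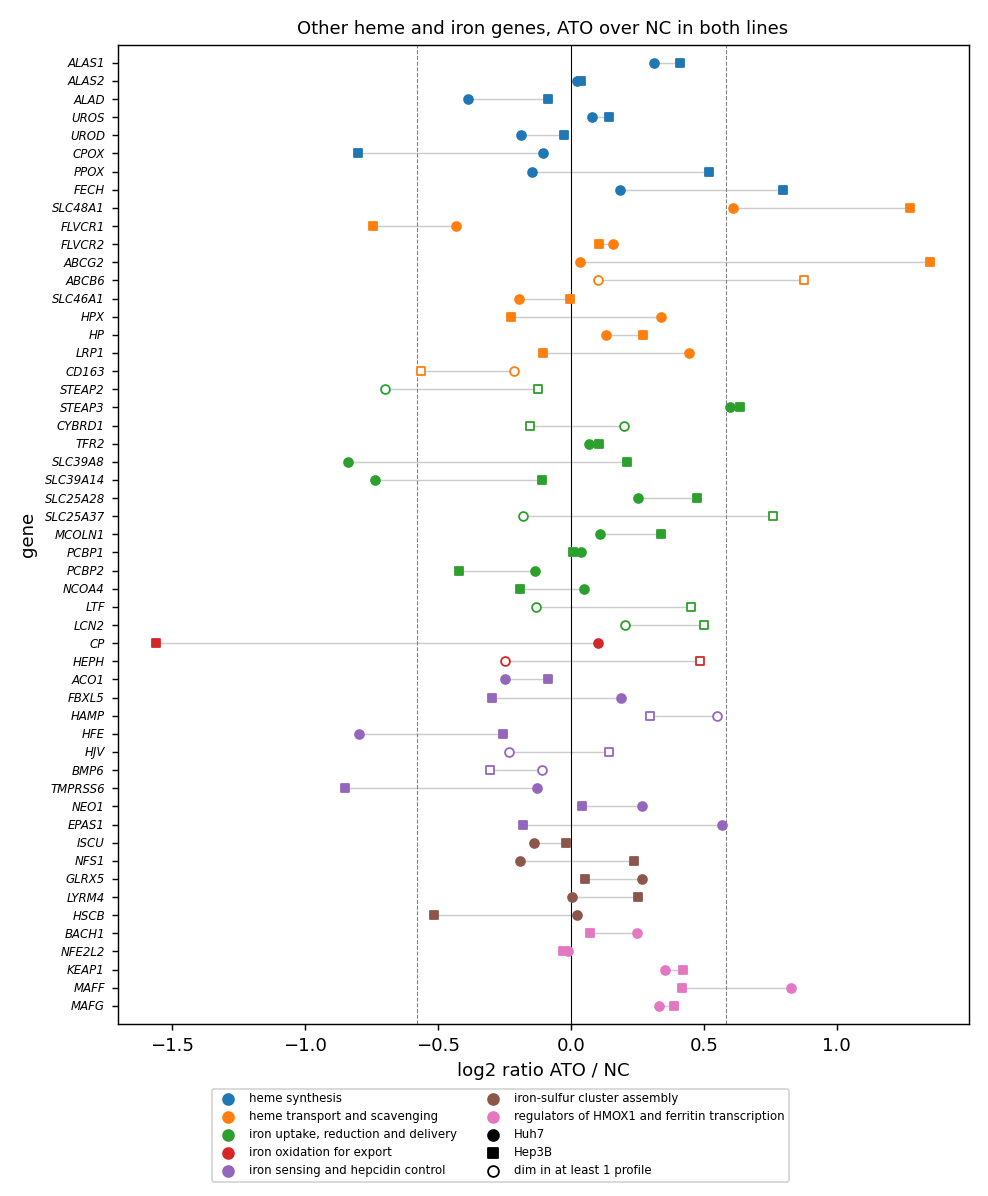
log2 ratio of ATO over NC of the 53 other heme and iron genes, colored by list, with circles for Huh7, squares for Hep3B, open symbols for genes dim in at least 1 profile and dashed lines at ratios of 1.5 and 0.67. Only SLC48A1 and STEAP3 lie past the right line in both lines, and CP in Hep3B lies farthest to the left at -1.56.

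The genes whose pair of log2 ratios in Huh7 and Hep3B lay nearest to that of HMOX1, by Euclidean distance over the 2 lines, were ANXA1 (0.65), KRT80 (0.70), ANKRD1 (0.90), GPX2 (1.14) and LOXL2 (1.20). ANXA1, a calcium-dependent phospholipid-binding protein, was at ratios of 6.91 in Huh7 and 3.29 in Hep3B. KRT80, a keratin, was at 11.6 and 7.00. ANKRD1, an ankyrin repeat protein of the nucleus and sarcomere, was at 4.44 and 4.91. GPX2, a glutathione peroxidase, was at 7.37 and 2.27, and LOXL2, a lysyl oxidase of the extracellular matrix, was at 4.40 and 2.89. All but LOXL2 were dim in 1 or 2 profiles, which HMOX1 was not, and a likeness over 2 lines is a description only.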

How the data were processed

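Expression was measured in 4 array profiles, 1 for each of ATO and NC (DMSO) in Huh7 and in Hep3B. By the methods, the raw data went through RMA (Robust Multi-array Average), were log-transformed and were normalized with quartiles in simpleaffy. What the authors deposited is a linear intensity for each probe set (2.24 to 14163.5, medians 15.8 to 16.3). How the values were returned from the log scale is not given in the sources used here, nor is the number of arrays behind a column. No detection call was used, and the number of arrays limits the precision.

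Symbols came from GEO's platform annotation, in which 41097 of 54675 probe sets had 1 symbol, 1801 had several and 11777 had none listed. A gene was read by its probe set of highest mean among those with 1 symbol (19775 genes). Listed genes with no probe set of their own, FTH1 and IREB2 among them, were not analysed here. Ratios were taken within lines. limma 3.58.1 in R 4.3.3 (files read with version 1.17.8 of the data.table package) was fitted to log2(intensity + 16) with cell line as a block, since each line gave 1 ATO and 1 NC profile. Benjamini-Hochberg adjustment covered all genes, with a threshold of 0.05. The offset is added because the values are linear, and it reduces the change of dim genes. Other steps used Python 3.11.15 with numpy 2.4.6, pandas 2.3.3 and matplotlib 3.10.9. The ratio thresholds and a limma fit with no offset were tested on simulated data. The fit with the offset of 16 was not tested in that way.

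The members and the gene lists were chosen with earlier results of these data known. Named genes are all members, 9 iron and heme genes taken whatever their values, list genes past a threshold in both lines, up to 4 in 1 line only for each line and direction, and the 5 genes nearest to HMOX1. Alternatives changed the probe set, normalization, offset, thresholds, dim-gene filter, prior and block.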

Additional observations from a re-analysis of the deposited data

Results flagged for a closer look

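Some genes moved in opposite directions in the 2 lines, with 1 profile per condition and line, and these differences between lines were not tested. The values are the log2 ratio of ATO over NC in Huh7 minus that in Hep3B. HMOX2 differed by -0.47 (ratios 0.97 in Huh7 and 1.35 in Hep3B), and its dimmer probe set 218121_at differed by 0.17 the other way (1.11 and 0.99). The TF probe set 214064_at differed by 0.96 (1.18 and 0.61), unlike the brighter TF probe sets, which were lower in both lines. CP, the ferroxidase, differed by 1.66 (1.07 and 0.34). FBXL5 differed by 0.49 (1.14 and 0.81) and NCOA4 by 0.24 (1.03 and 0.88). Among the metal importers, SLC39A8 differed by -1.05 (0.56 and 1.16) and SLC25A37 by -0.94 (0.88 and 1.69), the last being dim in 2 profiles. Over all genes, 8475 of 19775 moved in opposite directions at any size, so that a sign that differs between lines is common in these profiles.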

How the results depend on the processing

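HMOX1 was the 1 measured gene past the thresholds in both lines under every choice of probe set, scaling, offset, dim-gene filter and stricter thresholds of 2 and 0.5 that was run, although HMOX1 and BLVRB have 1 probe set each, so choices of probe set bear only on the other members. limma called 0 genes with offsets of 16 and 64, with median centring, with the mean of all probe sets and with no replicate block. It called 8 genes with no offset, 9 with an intensity trend in the prior and 5 of 13323 with dim genes left out, HMOX1 among them each time. The cause of these differences was not tested. With the replicate block left out, that is, cell line outside the model, the lowest adjusted p in limma was 0.99997, and 200 genes were higher and 134 lower at an unadjusted p under 0.05. The limma log2 fold change of SLC40A1 turned to 0.045 with the mean of all probe sets (adjusted p 0.881). Among log2 ratios of members under alternatives, 15 moved by more than the spread between lines and 89 did not. The 89 include settings that cannot change a value, such as choices of probe set for HMOX1 and BLVRB. They also include changes of sign smaller than that spread. HMOX2 in Huh7, for example, went from -0.04 to 0.15 without probe sets ending in _x_at or _s_at. Levels between lines were recomputed under alternatives chosen after seeing the data, where 12 moved and 92 did not, with the same limits. Leaving out 1 line gives the ratio of the other and no residual degrees of freedom, so no limma test was run. Quantile normalization and median centring changed no direction of a member by its brightest probe set.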
